A study of Mus musculus with 12 samples.

Results

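The DNA replication machinery and the supply of its nucleotides were followed through 52 genes in C2C12, a line of mouse myoblasts whose cells fuse into multinucleated myotubes when growth serum is withdrawn. The genes were listed by function, with earlier results of these data known. Each was represented by its brightest annotated probe over all 12 arrays. All 52 had a probe among the 19057 genes with one on the array, and 49 passed a filter on low signal. Pola1, Pole2 and Slbp did not pass it, so their mean log2 intensities of 6.43 to 6.51 across the stages lay below the array median of 6.684 and no change was tested. The 52 genes fell into 20 for origin licensing and the helicase, 21 for polymerases, clamp and fork, 5 for nucleotide supply and 6 for chromatin assembly and maintenance.

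The 12 Illumina bead arrays came from 4 groups of 3: C2C12 myoblasts at 50% confluence, C2C12 myoblasts at 95% confluence, C2C12 myotubes differentiated for 24 h, and C2C12 myotubes differentiated for 48 h. All were unmodified cells of this single line. Per the labels' protocols, the myoblasts grew in DMEM with BCS, and fully confluent myoblasts were moved to DMEM with heat-inactivated horse serum, insulin and transferrin to form myotubes, so medium and stage changed together. Confluence is a label, and the protocols give no cell cycle measurement. The labels number the replicates and name no separate cultures, and the p-values reflect only how far these samples vary. Of 11 tested markers of early myotubes, 11 were higher in 48 h myotubes than in 50% myoblasts, among them Myog, the myogenic regulator, with group means of 7.77, 7.17, 11.79 and 12.52 over the 4 stages in order. Of 3 genes of cell cycle exit, 3 were also higher, and all 4 tested genes of the undifferentiated state were lower. Pax7 and Myf5, also listed for that state, did not pass the filter. Of 4 tested markers of myoblasts, Myod1, Des and Cdh15 were higher in 48 h myotubes than in 50% myoblasts and Vcam1 was lower. Among all genes tested, 26.6% were higher and 29.9% lower in that comparison. Of the adipocyte, osteoblast and endothelial lists, 2 genes each passed the filter, and no leukocyte gene did, with highest group means of 8.90, 7.02, 6.77 and 6.61 in these 4 lists. Of these genes Pparg (adipocyte) and Sp7 (osteoblast) were lower in 48 h myotubes than in 50% myoblasts, with log2 changes of -0.85 and -0.41 (adjusted p = 5.50e-05 and 1.97e-05, limma), and the other 4 tested did not pass. The part of other cells in the results was not tested.

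Before a cell copies its DNA, the origin recognition complex, Cdc6 and Cdt1 load the MCM2-7 helicase at origins, a step called licensing. Kinases, Cdc45 and GINS then switch the helicase on, polymerases copy the strands behind a sliding clamp, and histone chaperones rebuild chromatin on the new DNA. Many of these genes are known targets of E2F transcription factors, which the retinoblastoma proteins hold in check when myoblasts leave the cell cycle to fuse.

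Array 3 of the 95% group stood apart and is dealt with before the results. It was the highest of its group in 47 of the 49 tested genes. The median of these genes, relative to the mean of the 50% arrays, was -0.50, -0.40 and -0.05 on arrays 1, 2 and 3 of the 95% group, on the log2 scale. In the other groups the arrays lay close together, at -0.03 to 0.04 in 50% myoblasts, -0.92 to -0.87 in 24 h myotubes and -1.75 to -1.67 in 48 h myotubes. The array weights of limma were 0.146 for this array and 0.600 to 1.95 for the other 11. The cause of the spread was not tested. Counts and medians of the 49 genes at confluence and on the first day are given with and without this array.

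**Figure D1:**
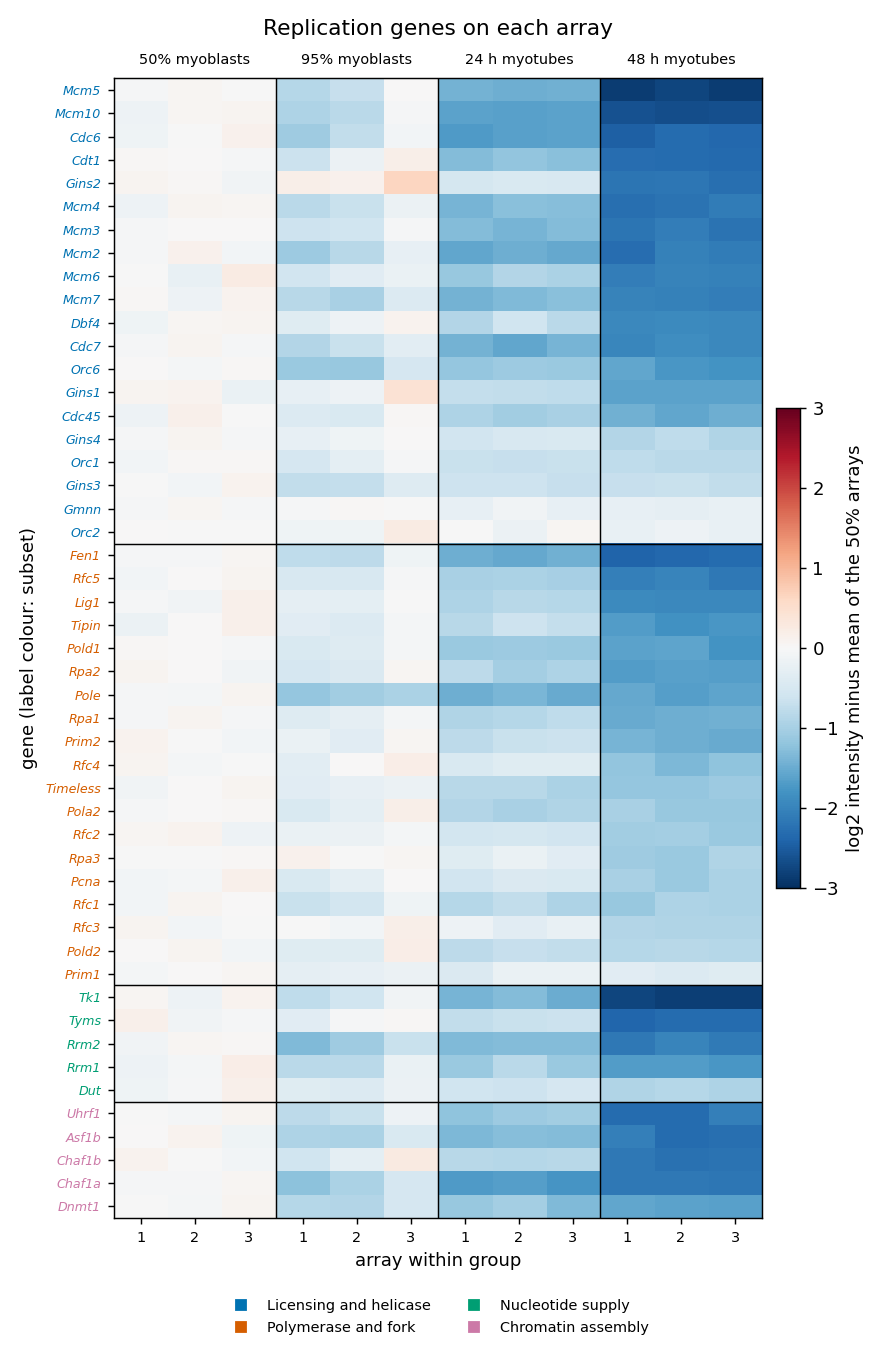
Each row is 1 of the 49 tested genes and each column 1 of the 12 arrays, with colour giving the log2 intensity minus the mean of the 50% arrays. The 48 h columns are the most strongly blue, with array medians of -1.75 to -1.67, and array 3 of the 95% group, at -0.05, looks paler than its 2 companions.

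RefSeq promoters (build GRCm38.p6, 250 bases before to 50 after an annotated start) were found for 43 of the 52 genes, with 53 promoters in all. The other 9 were Gmnn, Mcm4, Gins1, Gins2, Gins4, Prim2, Pole, Rfc2 and Tipin. They were searched on both strands for 4 words that E2F factors are known to bind, TTTCCCGC, TTTCGCGC, TTTGCCGC and TTTGGCGC. At least 1 such word lay in 15 of the 53 promoters (28.3%), against 744 of all 32851 promoters in the table (2.26%). By gene, 8 of 15 licensing genes, 5 of 17 polymerase and fork genes, 0 of 5 nucleotide genes and 2 of 6 chromatin genes held one. A further word, CCAAT, which the factor NF-Y is known to bind, lay in 31 of the 53 promoters (58.5%), against 37.4% of all promoters. The last word searched, TTTGAA, lay in 10 of the 53 promoters (18.9%), close to the 17.9% of all promoters. Such matches describe the letters and are not evidence of binding. Of the genes described array by array below, Mcm5, Cdc6, Uhrf1, Lig1 and Dnmt1 held an E2F-type word. For Mcm5 and Cdc6, 2 of the strongest fallers, the word lay before the start and past no other annotated start of the gene, and the 250 bases before the start are shown on the + strand with the words in capitals. In Mcm5, at chr8:75109259-75109508, a pair of words begin at -153 and -149 and overlap, TTTCGCGC on the strand shown and the other on the opposite strand. In Cdc6, at chr11:98907901-98908150, 1 word on the opposite strand begins at -138.
Mcm5: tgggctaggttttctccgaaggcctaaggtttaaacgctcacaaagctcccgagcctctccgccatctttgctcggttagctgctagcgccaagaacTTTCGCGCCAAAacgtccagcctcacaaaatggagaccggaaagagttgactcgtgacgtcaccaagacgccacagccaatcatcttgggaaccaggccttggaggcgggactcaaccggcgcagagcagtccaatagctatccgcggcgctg
Cdc6: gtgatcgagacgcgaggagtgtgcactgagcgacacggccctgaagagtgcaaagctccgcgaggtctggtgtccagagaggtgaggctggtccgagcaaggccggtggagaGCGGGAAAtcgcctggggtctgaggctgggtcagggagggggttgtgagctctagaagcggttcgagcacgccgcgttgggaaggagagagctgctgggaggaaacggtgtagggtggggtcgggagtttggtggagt

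From growing myoblasts to 48 h myotubes almost the whole machinery was lower. Of the 49 genes tested, 48 fell and 0 rose in 48 h myotubes relative to 50% myoblasts, while 29.9% of the 11870 genes tested in all fell and 26.6% rose. Gmnn, Orc1 and Prim1 passed the filter only through earlier groups, since not all their 48 h arrays lay above the array median. The filter therefore favoured a fall in these genes, and all 11870 genes met the same filter. The median change of the 49 was -1.70 on the log2 scale, against -0.01 for all genes tested. Of the 49, 40 fell at least 2-fold, beside 662 of all 11870. By median, nucleotide supply (-2.08), chromatin assembly (-2.19) and licensing (-1.98) lay below polymerases and fork (-1.26). The ranges of the 4 subsets overlapped, at -2.80 to -0.89, -2.22 to -1.60, -2.81 to -0.20 and -2.36 to -0.37 in the same order. Over all 4 stages, 48 of 49 differed among the stages by the moderated F-test, beside 72.2% of all genes. In a bulk sample, fewer cells with a transcript and less of it per cell cannot be told apart.

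**Figure D2:**
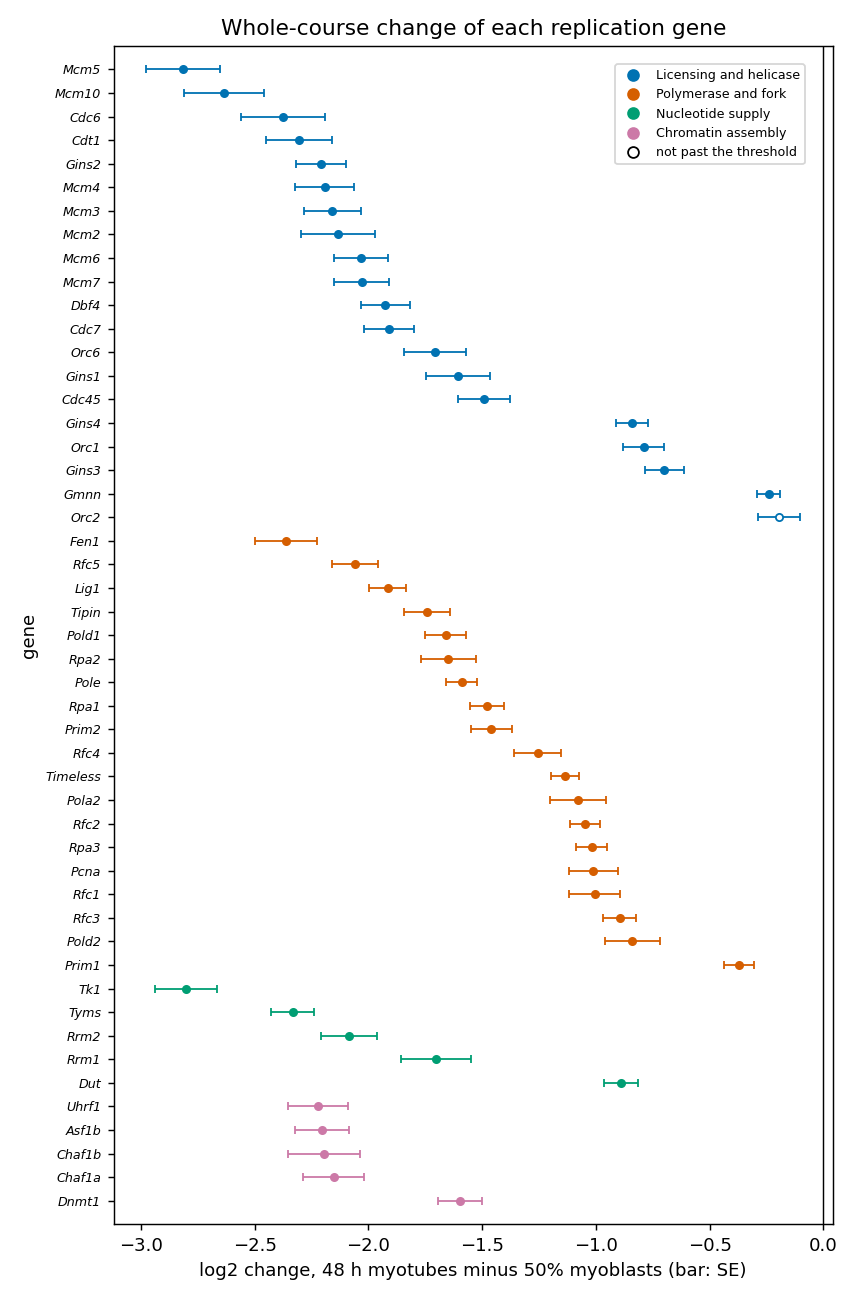
Points give the log2 change of each tested gene, 48 h myotubes minus 50% myoblasts, with bars of 1 SE and colours for the 4 subsets. Changes run between -2.81 for Mcm5 and -0.20 for Orc2, whose open point did not pass the threshold.

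Licensing and helicase genes held both the strongest fall and the weakest. Mcm5, a subunit of the MCM2-7 helicase, had log2 intensities of 12.52, 12.62 and 12.54 in 50% myoblasts, 11.70, 11.86 and 12.57 in 95% myoblasts, 11.15, 11.10 and 11.12 in 24 h myotubes and 9.71, 9.81 and 9.72 in 48 h myotubes. The 48 h arrays lay below all others and the 24 h arrays below both myoblast groups, while array 3 of the 95% group lay within the range of the 50% arrays. Mcm5 was 7.03-fold lower in 48 h myotubes than in 50% myoblasts (log2 change -2.81 ± 0.16 SE, adjusted p = 2.82e-08). Mcm10, which helps to start the helicase, showed 10.71, 10.92 and 10.96 in 50% myoblasts, 9.93, 10.06 and 10.83 in 95% myoblasts, 9.25, 9.24 and 9.25 in 24 h myotubes and 8.25, 8.21 and 8.22 in 48 h myotubes. It had the same order, with array 3 of the 95% group again inside the 50% range, and was 6.21-fold lower in 48 h myotubes than in 50% myoblasts (log2 change -2.63 ± 0.17 SE, adjusted p = 9.17e-08). Cdc6, which loads the helicase at origins, showed 9.56, 9.68 and 9.82 in 50% myoblasts, 8.63, 8.94 and 9.62 in 95% myoblasts, 7.98, 8.05 and 8.09 in 24 h myotubes and 7.23, 7.38 and 7.33 in 48 h myotubes. Its 24 h and 48 h arrays lay apart from each other and from the myoblasts, and it was 5.19-fold lower in 48 h myotubes than in 50% myoblasts (log2 change -2.38 ± 0.18 SE, adjusted p = 3.58e-07). Orc2, a subunit of the origin recognition complex, showed 6.98, 6.95 and 6.95 in 50% myoblasts, 6.82, 6.83 and 7.20 in 95% myoblasts, 6.94, 6.78 and 7.01 in 24 h myotubes and 6.73, 6.82 and 6.74 in 48 h myotubes. Its 48 h and 50% arrays did not overlap, but the change of -0.20 ± 0.09 (SE; adjusted p = 0.093, limma) did not pass the threshold, and it passed without array 3 of the 95% group (adjusted p = 0.00786, limma). Its values lay near the array median of 6.684, where changes can be understated.

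By their brightest probes, the 6 MCM2-7 subunits fell together. All 6 fell in each of the 4 comparisons, although other probes of Mcm4, Mcm6 and Mcm7 rose at confluence. Their changes lay between -2.81 and -2.03 on the log2 scale in 48 h myotubes relative to 50% myoblasts, with a median of -2.15. The helicase loaders Cdc6 and Cdt1 changed by -2.38 and -2.31. The kinase Cdc7 and its activator Dbf4 changed by -1.91 and -1.93, and Cdc45, a partner of the active helicase, by -1.49. Within the origin recognition complex the measured changes were -1.71 for Orc6, -0.79 for Orc1 and -0.20 for Orc2. Orc6 fell from a mean of 11.92 to 10.21. Orc1 fell from 7.47 to 6.68, and Orc2 from 6.96 to 6.76, both near the array median of 6.684. Whether the subunits differ can therefore not be told from these changes. Gmnn, the inhibitor of Cdt1, changed by -0.24 from a 50% mean of only 6.79, also near that median. Changes at such levels can be understated.

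**Figure D3:**
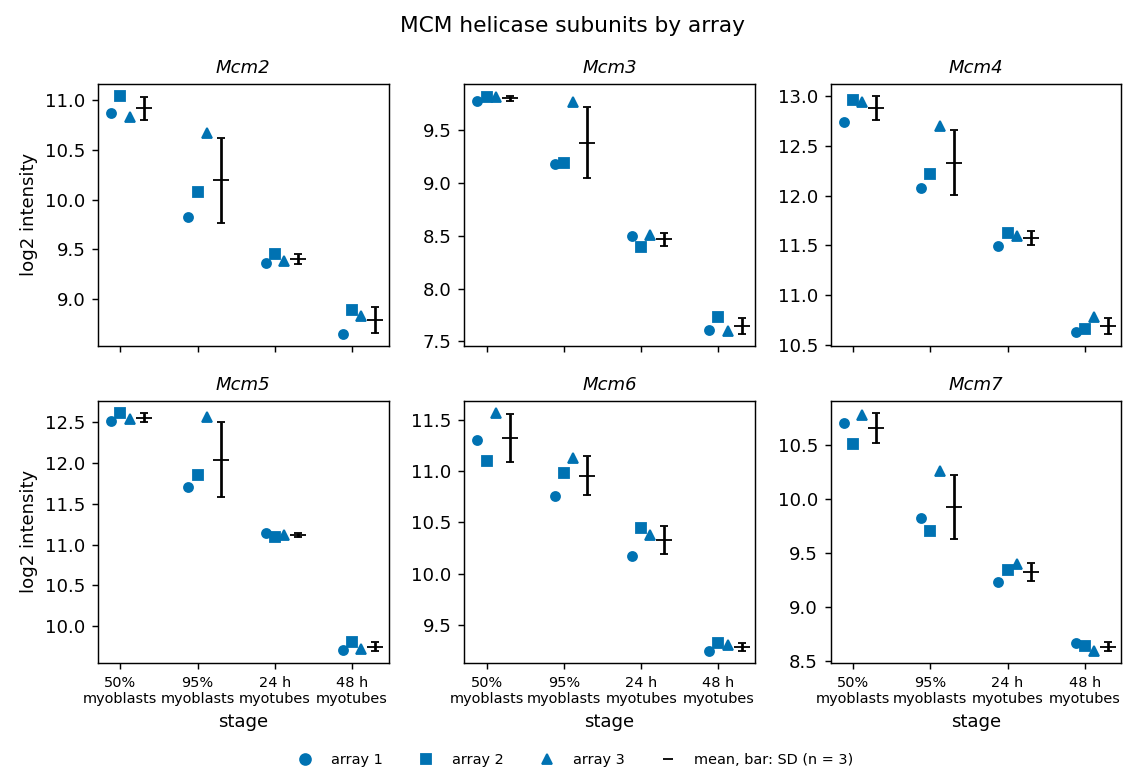
Each panel shows 1 MCM2-7 subunit, with the log2 intensity of each of the 12 arrays by stage and the mean with its SD beside them (n = 3). In all 6 panels the 48 h arrays are lowest, and array 3 of the 95% group is the highest of its group.

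The 4 GINS subunits, which complete the active helicase, did not follow one course. Gins2 had log2 intensities of 9.74, 9.70 and 9.55 in 50% myoblasts, 9.84, 9.78 and 10.30 in 95% myoblasts, 9.15, 9.20 and 9.18 in 24 h myotubes and 7.48, 7.49 and 7.39 in 48 h myotubes. The 95% arrays all lay above the 50% arrays, and the 48 h arrays lay far below every other. It was 4.62-fold lower in 48 h myotubes than in 50% myoblasts (log2 change -2.21 ± 0.11 SE, adjusted p = 8.36e-09). At confluence it was the 1 tested gene that rose, by 0.31 ± 0.11 (SE; adjusted p = 0.0417, limma), a call that was lost without array 3 of the 95% group and under several other settings. Gins1 changed by -1.61 over the whole course. At confluence it changed by 0.02, and by -0.19 without array 3 of the 95% group, and neither change passed. Gins3 fell at confluence, by 0.61, and its later changes of -0.04 and -0.05 did not pass, while Gins4 changed by -0.84 over the course.

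Of the polymerase, clamp and fork genes, all 19 tested fell over the course. Fen1, the nuclease that trims the flaps of lagging-strand fragments, showed 11.61, 11.61 and 11.71 in 50% myoblasts, 10.88, 10.87 and 11.52 in 95% myoblasts, 10.17, 10.10 and 10.20 in 24 h myotubes and 9.23, 9.28 and 9.33 in 48 h myotubes. The 4 groups did not overlap, and it was 5.15-fold lower in 48 h myotubes than in 50% myoblasts (log2 change -2.36 ± 0.14 SE, adjusted p = 2.77e-08). Rfc5, a subunit of the loader of the sliding clamp, showed 10.17, 10.26 and 10.34 in 50% myoblasts, 9.78, 9.78 and 10.21 in 95% myoblasts, 9.30, 9.30 and 9.27 in 24 h myotubes and 8.22, 8.28 and 8.10 in 48 h myotubes. Array 3 of the 95% group lay within the 50% range, the myotube groups lay apart, and it was 4.17-fold lower in 48 h myotubes than in 50% myoblasts (log2 change -2.06 ± 0.10 SE, adjusted p = 7.36e-09). Lig1, the ligase that joins those fragments, showed 10.62, 10.58 and 10.81 in 50% myoblasts, 10.39, 10.37 and 10.66 in 95% myoblasts, 9.73, 9.85 and 9.81 in 24 h myotubes and 8.77, 8.74 and 8.75 in 48 h myotubes. Its groups were ordered in the same way, and it was 3.77-fold lower in 48 h myotubes than in 50% myoblasts (log2 change -1.92 ± 0.08 SE, adjusted p = 2.19e-09). Prim1, the catalytic subunit of primase, showed 7.01, 7.07 and 7.13 in 50% myoblasts, 6.79, 6.83 and 6.89 in 95% myoblasts, 6.64, 6.86 and 6.87 in 24 h myotubes and 6.72, 6.65 and 6.72 in 48 h myotubes. The 50% arrays lay above all others and the later groups lay close to the array median, and it was 1.29-fold lower in 48 h myotubes than in 50% myoblasts (log2 change -0.37 ± 0.06 SE, adjusted p = 3.57e-04).

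The other polymerase and fork genes spread widely. Subunits of the leading- and lagging-strand polymerases changed by -1.59 (Pole), -1.66 (Pold1), -0.84 (Pold2) and -1.08 (Pola2), and the primase partner Prim2 by -1.46. The sliding clamp Pcna changed by -1.01. Its loader subunits Rfc1, Rfc2, Rfc3 and Rfc4 changed by -1.01, -1.05, -0.89 and -1.26. Rpa1, Rpa2 and Rpa3, which coat single-stranded DNA, changed by -1.48, -1.65 and -1.02. The fork protection pair Tipin and Timeless changed by -1.74 and -1.14.

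All 5 nucleotide supply genes fell. Tk1, the thymidine kinase of proliferating cells, showed 11.82, 11.60 and 11.86 in 50% myoblasts, 11.01, 11.16 and 11.66 in 95% myoblasts, 10.37, 10.47 and 10.26 in 24 h myotubes and 9.01, 8.94 and 8.93 in 48 h myotubes. The myotube arrays lay apart from the myoblast arrays and from each other, and it was 6.98-fold lower in 48 h myotubes than in 50% myoblasts (log2 change -2.80 ± 0.14 SE, adjusted p = 6.98e-09). Tyms, which makes thymidylate, showed 11.54, 11.27 and 11.34 in 50% myoblasts, 11.04, 11.36 and 11.43 in 95% myoblasts, 10.64, 10.71 and 10.73 in 24 h myotubes and 9.003, 9.06 and 9.08 in 48 h myotubes. Its 95% and 50% arrays overlapped, its 24 h arrays lay below both, and it was 5.04-fold lower in 48 h myotubes than in 50% myoblasts (log2 change -2.33 ± 0.09 SE, adjusted p = 1.57e-09). Rrm2, the small subunit of ribonucleotide reductase, showed 11.18, 11.36 and 11.34 in 50% myoblasts, 9.97, 10.22 and 10.62 in 95% myoblasts, 9.96, 9.98 and 9.99 in 24 h myotubes and 9.14, 9.30 and 9.18 in 48 h myotubes. Its 95% arrays already lay below the 50% arrays and met the 24 h arrays, and it was 4.24-fold lower in 48 h myotubes than in 50% myoblasts (log2 change -2.08 ± 0.12 SE, adjusted p = 3.67e-08). Dut, which keeps uracil out of DNA, showed 7.78, 7.86 and 8.05 in 50% myoblasts, 7.53, 7.498 and 7.73 in 95% myoblasts, 7.29, 7.28 and 7.39 in 24 h myotubes and 7.003, 7.04 and 6.98 in 48 h myotubes. The 4 groups did not overlap, and it was 1.85-fold lower in 48 h myotubes than in 50% myoblasts (log2 change -0.89 ± 0.08 SE, adjusted p = 9.10e-07). Rrm1, the large subunit of ribonucleotide reductase, changed by -1.70.

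Chromatin assembly genes fell together over the course. Uhrf1, which brings the maintenance methyltransferase to new DNA, showed 12.56, 12.49 and 12.63 in 50% myoblasts, 11.79, 11.89 and 12.40 in 95% myoblasts, 11.35, 11.47 and 11.51 in 24 h myotubes and 10.25, 10.26 and 10.50 in 48 h myotubes. Asf1b, a histone chaperone, showed 10.15, 10.23 and 10.00 in 50% myoblasts, 9.21, 9.17 and 9.68 in 95% myoblasts, 8.78, 8.84 and 8.83 in 24 h myotubes and 8.07, 7.83 and 7.87 in 48 h myotubes. In both genes the 4 groups did not overlap. Uhrf1 was 4.67-fold lower in 48 h myotubes than in 50% myoblasts (log2 change -2.22 ± 0.13 SE, adjusted p = 3.65e-08), and Asf1b was 4.61-fold lower in 48 h myotubes than in 50% myoblasts (log2 change -2.20 ± 0.12 SE, adjusted p = 1.63e-08). Chaf1b, a subunit of the chromatin assembly factor CAF-1, showed 10.57, 10.46 and 10.39 in 50% myoblasts, 9.88, 10.18 and 10.75 in 95% myoblasts, 9.63, 9.63 and 9.64 in 24 h myotubes and 8.34, 8.24 and 8.27 in 48 h myotubes. Array 3 of the 95% group was above every 50% array, and it was 4.58-fold lower in 48 h myotubes than in 50% myoblasts (log2 change -2.19 ± 0.16 SE, adjusted p = 1.95e-07). Dnmt1, the maintenance methyltransferase, showed 10.31, 10.26 and 10.42 in 50% myoblasts, 9.47, 9.46 and 9.82 in 95% myoblasts, 9.20, 9.31 and 9.02 in 24 h myotubes and 8.77, 8.73 and 8.71 in 48 h myotubes. Its groups did not overlap, and it was 3.03-fold lower in 48 h myotubes than in 50% myoblasts (log2 change -1.60 ± 0.10 SE, adjusted p = 4.55e-08). Chaf1a, the partner of Chaf1b, changed by -2.15.

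By the brightest probes, the fall was spread over confluence and both days of differentiation. At confluence this rests on those probes. Of 38 further probes 9 fell and 8 rose there, beside 20.7% and 20.9% of all probes. The protocols moved fully confluent myoblasts, so any change from 95% to full confluence would fall in the first-day step. At confluence, 29 of 49 genes fell and 1 rose in 95% relative to 50% myoblasts, beside 21% and 18.9% of all genes, with a median of -0.29. Without array 3 of the 95% group, 41 fell and 0 rose, beside 25.7% of all genes lower, and the median was -0.43. Leaving out array 1 or array 2 of that group gave 18 in either case, counts that have no share of all genes beside them. On the first day, 42 fell and 0 rose in 24 h myotubes relative to 95% myoblasts, beside 21.3% and 16% of all genes, with a median of -0.59. The fit without array 3 of the 95% group also gave 42 and 0, beside 22.4% and 17% of all genes, with a median of -0.44. On the second day, 40 fell and 0 rose in 48 h relative to 24 h myotubes, beside 22.1% and 22.8% of all genes, with a median of -0.69. By the brightest probes, 21 of the 49 genes fell in all 3 steps, beside 1.55% of all genes. These held every MCM2-7 subunit, Cdc6, Mcm10, Cdc7, Fen1, Tk1, Dut and 4 of the 5 tested chromatin genes. Other probes of Mcm4, Mcm6, Mcm7 and Uhrf1 rose at confluence. Without array 3 of the 95% group, 32 of the 49 fell in all 3 steps, beside 2.96% of all genes, and these included the 21.

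Among the 40 genes at least 2-fold lower over the course, the median share of the change was 18.5% at confluence, 35.1% on the first day and 42.1% on the second. The largest step was confluence for 7, the first day for 10 and the second day for 23 of them. The same shares were not computed over all genes, so whether this course is particular to these genes cannot be told. Without array 3 of the 95% group the median shares were 28.3%, 26.3% and 42.1%, so confluence and the first day changed places, and the counts were 12, 4 and 24. Pole, the leading-strand polymerase, had 66.1% of its change at confluence, and Orc6 and Rrm2 had 54.0% and 49.0% (69.4%, 66.1% and 57.4% without array 3 of the 95% group). The share of Rrm2 rests on its brightest probe: another bright probe changed by -0.19 at confluence, which did not pass, 9.68% of its whole-course change of -1.93. Gins2, Rpa3 and Tyms had 77.8%, 70.9% and 70.6% on the second day, and Pola2 had 67.1% on the first (50.1% without that array).

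The test of the second-day change minus the first-day change passed for 7 genes. It was lower, meaning a larger fall on the second day, for Gins2, Dbf4, Tyms, Tipin, Rpa3 and Rfc3, 6 of 49 genes beside 13% of all genes. It was higher for Timeless, 1 of 49 beside 16.1%. Both shares lie below those of all genes. Tyms changed by -1.65 ± 0.09 on the second day and -0.58 ± 0.09 on the first (SE). Timeless changed by -0.27 ± 0.06 and -0.62 ± 0.06. Without array 3 of the 95% group, 21 genes were lower and 3 higher, beside 17.3% and 19.9% of all genes.

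**Figure D4:**
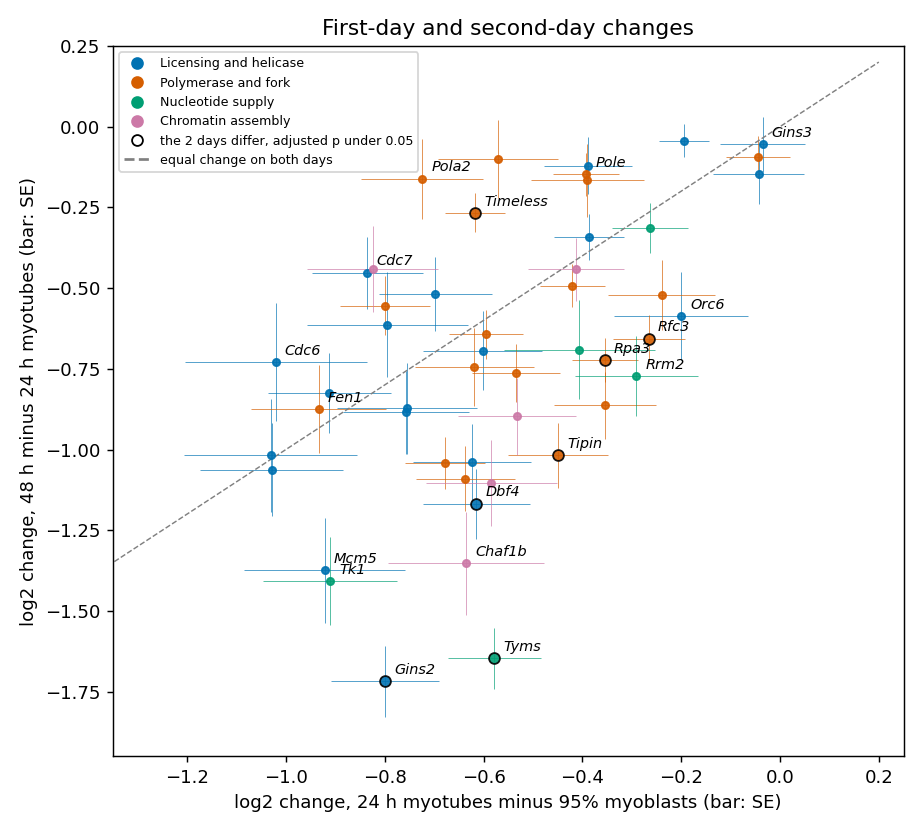
The x axis is the log2 change of 24 h myotubes minus 95% myoblasts and the y axis that of 48 h minus 24 h myotubes, with bars of 1 SE and 1 point per tested gene. Gins2 and Tyms lie lowest, at -1.72 and -1.65 on the y axis, and Timeless is the outlined point above the line of equal change.

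Other probes of the same genes gave a check on the brightest ones. In a fit of all 19403 probes that passed the filter, 38 further probes of 20 of the genes were tested. Over the whole course 34 of the 38 fell, beside 29.3% of all probes, and 1 rose, a dim probe of Rrm2 (0.14). At confluence only 9 of the 38 fell and 8 rose, beside 20.7% and 20.9% of all probes. The 8 belonged to 7 genes, and in 4 of these, Mcm4, Mcm6, Mcm7 and Uhrf1, the brightest probe fell. Mcm7 is an example, with changes of -0.73 for the brightest probe and 0.52 for the other. The probes that rose for Mcm4, Mcm6 and Uhrf1 were dim, with group means of at most 7.41, 7.16 and 7.05 near the array median of 6.684. For Mcm6 the other 2 further probes were bright and fell, by 0.62 and 0.41. For Mcm4, Mcm7 and Uhrf1 no further probe fell at confluence.

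**Figure D5:**
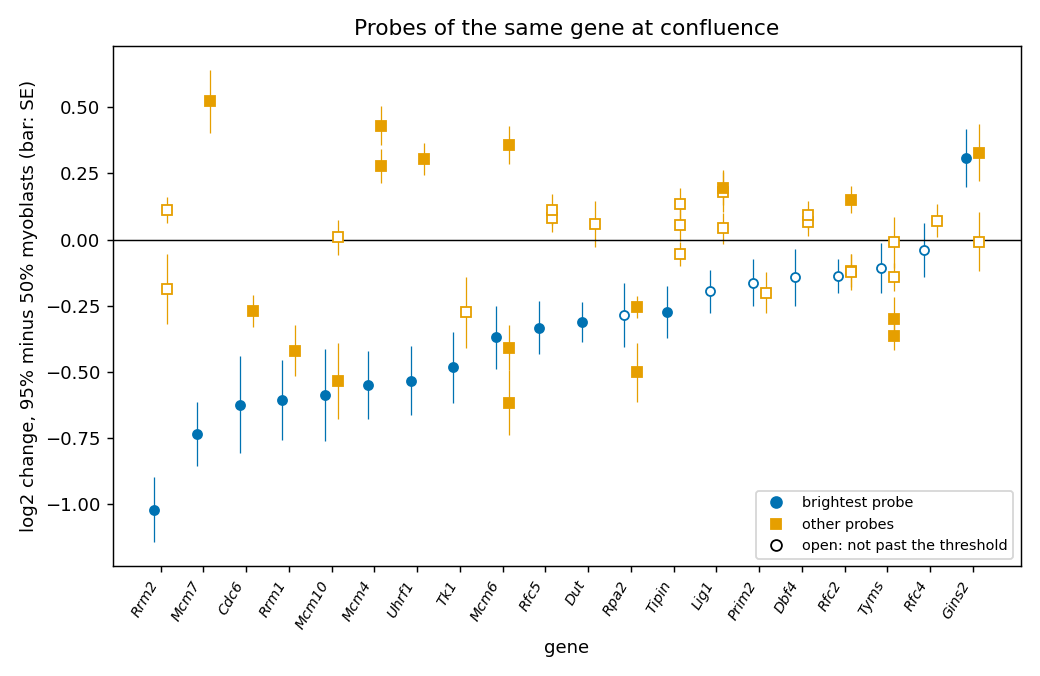
Log2 change of 95% minus 50% myoblasts for each probe of the 20 genes with more than 1 probe past the filter, with bars of 1 SE. The other probes of Mcm4, Mcm7 and Uhrf1 and 1 of the 3 other probes of Mcm6 lie above 0, while the brightest probe of each lies below it.

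A list of 63 further genes of replication and nucleotide metabolism, also made with earlier results known, gave 56 that were tested. In 48 h myotubes relative to 50% myoblasts, 42 of them fell, 3 rose and 11 did not pass, beside 29.9% lower and 26.6% higher among all genes, with a median of -0.83. Clspn, a mediator of the replication checkpoint, showed 10.15, 10.30 and 10.33 in 50% myoblasts, 9.30, 9.55 and 9.88 in 95% myoblasts, 9.05, 9.01 and 8.95 in 24 h myotubes and 8.12, 8.19 and 8.01 in 48 h myotubes, and was 4.44-fold lower in 48 h myotubes than in 50% myoblasts (log2 change -2.15 ± 0.12 SE, adjusted p = 1.53e-08). Shmt1, an enzyme of folate metabolism, was 4.23-fold lower in 48 h myotubes than in 50% myoblasts (log2 change -2.08 ± 0.22 SE, adjusted p = 5.75e-06), and Top2a, the topoisomerase that untangles replicated DNA, was 3.95-fold lower in 48 h myotubes than in 50% myoblasts (log2 change -1.98 ± 0.08 SE, adjusted p = 2.00e-09). In these 3 genes every 48 h array lay below every array of the other groups. The 3 that rose were Top1, a topoisomerase, Polb, a DNA repair polymerase, and Rrm2b, the ribonucleotide reductase subunit used outside S phase. Top1 showed 8.43, 8.58 and 8.71 in 50% myoblasts, 8.84, 8.85 and 9.07 in 95% myoblasts, 9.26, 9.04 and 9.22 in 24 h myotubes and 9.38, 9.06 and 9.39 in 48 h myotubes, and was 1.63-fold higher in 48 h myotubes than in 50% myoblasts (log2 change 0.70 ± 0.11 SE, adjusted p = 1.13e-04). Polb was 1.29-fold higher in 48 h myotubes than in 50% myoblasts (log2 change 0.37 ± 0.06 SE, adjusted p = 2.08e-04), and Rrm2b was 1.29-fold higher in 48 h myotubes than in 50% myoblasts (log2 change 0.37 ± 0.08 SE, adjusted p = 0.00126). In each of the 3 the 48 h arrays lay above the 50% arrays.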

How the data were processed

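Total RNA of C2C12 cells was measured on 12 Illumina bead arrays, 3 in each of 4 groups. The values come from the table the authors deposited, read here as log2 intensities after normalization, and RMA and lumi are named in the submitters' processing notes with no role or version. Whether that scale is ordinary log2 or variance-stabilized cannot be told apart from the values, so changes of dim genes may be understated. The sorted columns differ by at most 0.003, as after quantile normalization. A table of signal before normalization has 24 columns of per-sample values that match no sample's labels, and it was not used here. Precision is limited by the number of arrays.

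Of 45281 probes, 34885 had 1 gene, 18 several and 10378 none. Each gene was represented by its brightest probe over the 12 arrays, and was tested if some group had all 3 of its arrays above the median of the array, which left 11870 genes. A linear model of the 4 group means was fitted to the 12 arrays (limma 3.58.1 under R 4.3.3, lmFit and eBayes), and p-values were adjusted by Benjamini-Hochberg over all genes tested, 2-sided, with a threshold of 0.05. This model is the source of each adjusted p printed for a gene. It shares 1 spread per gene among the groups, although the 95% arrays varied most. The fit was tested on simulated data with independent arrays and 1 spread per gene. That test did not cover unequal spread between groups or arrays of the same replicate number deviating together.

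The members and lists were chosen with earlier results of these data known. Array values were given for, per subset, the 3 lowest and the 1 highest whole-course change, and for any member called higher. For the further genes the 3 lowest and 3 highest were named, and other genes were chosen after their values were seen. Of the 5 promoters that the rule set out to print, 2 are printed: those with a word past another start of the gene or after the start were left out, a restriction added after the sequences were seen. Samples with the same replicate number deviated together in part: 5 of 18 pairs had a correlation over 0.1, with a range of -0.09 to 0.33. The highest, 0.33 and 0.24, joined the 50% and 95% groups, for replicates 1 and 3. The main model held no replicate block. Alternatives covered the filter, the probe per gene, the variance model, array weights, centring, the groups fitted, the replicate block and leaving out each array.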

Additional observations from a re-analysis of the deposited data

Results flagged for a closer look

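The second-day change was tested against the first-day change within the same fit. It lay lower for 6 genes, Gins2, Dbf4, Tyms, Tipin, Rpa3 and Rfc3, and higher for 1, Timeless, of the 49 tested, beside 13% lower and 16.1% higher among all genes. The 95% arrays enter the first-day change, and array 3 of that group gave 21 lower and 3 higher when left out, beside 17.3% and 19.9% of all genes.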

How the results depend on the processing

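Of the counts of genes lower, those over the whole course, the first day and the second day kept within 1.5 times under all alternatives but the second-brightest probe, which exists past the filter for only 20 of the genes. That probe gave 19 lower over the whole course, 14 on the first day, 17 on the second, 5 at confluence and 19 changed at any stage, and 21 of the further genes lower. Fitting only the groups compared gave 16 lower at confluence and 3 with a lower second-day change. Array weights gave 18 with a lower second-day change. Leaving out each array in turn gave 18 to 41 lower at confluence and 2 to 21 with a lower second-day change, the highest of both without array 3 of the 95% group. A lower second-day change numbered 3 without array 2 of the 95% group, array 2 of the 24 h group or array 1 of the 48 h group, and 2 without array 3 of the 24 h group or array 2 of the 48 h group. The cause was not tested. The rise of Gins2 at confluence was lost without any single 50%, 24 h or 48 h array, without array 3 of the 95% group, and with array weights, no filter, the mean of probes, the groups compared alone or the replicate block. With the replicate block, 48 genes were lower over the whole course and 30 at confluence, and it changed no other count of lower genes by over 1.5 times. Shares of all genes are given only for the main fit and the fit without array 3 of the 95% group. The other counts here show only how the calls moved. Of the 17 genes given array by array, none changed direction over the whole course under the alternatives run. The subset medians over the whole course moved by at least the combined SD of their 48 h and 50% arrays in 11 cases, and by less in 73. At confluence other probes of Mcm4, Mcm6, Mcm7 and Uhrf1 rose where the brightest probe fell.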
